A study of Rattus norvegicus and Mus musculus with 18 samples.

Results

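Embryonic globins and the red cell enzyme Alas2 were followed through the 2 tissues that build the kidney, the ureteric bud and the metanephric mesenchyme, in mouse and rat. A probe set, the group of short probes that reads 1 transcript on these arrays, was included when the array annotation gave it exactly 1 gene symbol and that symbol was Hbb-bh1, Hba-x, Hba-a1, Hbz, Hbe1, Hbg1 or Alas2. This rule itself used no measured value, but the 7 genes were chosen with earlier results of these data known. The annotation gave 19342 gene symbols to single-symbol probe sets in all. For the 7 genes the rule found 12 of 71239 probe sets, with at least 1 for each. The mouse array held 6 of them, the first rat array design (A) 4, rat design B 2 and rat design C 0. A further 13 probe sets named one of these genes beside other symbols and were not used. Of the 12, 10 were bright enough in at least 1 tissue to be tested.

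Mouse kidneys were taken at embryonic stage E12.5 and separated into bud tips, bud stalks and mesenchyme, and rat kidneys at E13.5 into whole buds and mesenchyme. The labels name no strain, genotype or treatment other than the enzymes used to separate the tissues. Each RNA was a pool of dissected pieces, about 1000 from mouse tips, 350 from stalks and 300 from mesenchyme, and in rat about 1200 from buds and 240 from mesenchyme. From each, 1 ug was labelled, with 2 labelings per tissue and 18 arrays in all. The 2 arrays of a tissue therefore repeat the labelling of 1 pooled RNA, so every p-value measures labelling and hybridisation spread and not the spread between animals or dissections.

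Tip and mesenchyme carried the markers of their labels, and the stalk carried those of both tissues. The summed level of 9 bud epithelium markers was 27066 to 27875 on the tip arrays, 14319 to 14654 on the stalk arrays and 660 to 744 on the mesenchyme arrays. The 8 mesenchyme markers summed to 1026 to 1230, 7678 to 7762 and 10882 to 11141 in the same order. In stalk against mesenchyme Six2, Eya1, Meox1 and Foxd1 were called lower (-1.85, -2.14, -2.64 and -1.13), while Pdgfra, Col1a1 and Col1a2 differed by 0.14, 0.16 and 0.42. The second rat bud labelling stood apart on all designs: for Gapdh, the control that compares both ends of a transcript, the 3' signal exceeded the 5' signal by a factor of 4.26 to 5.28, against 1.25 to 1.47 on the other rat arrays and 0.903 to 1.01 in mouse. The differences of the rat globins, Alas2 and Cd47 are therefore also given without it.

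Haemoglobin is built from alpha-like and beta-like globin chains, and each chain holds haem, the iron compound that binds oxygen. In mammals the alpha-like and beta-like genes lie in separate clusters, and each cluster holds genes used early in development beside genes used later. The first red cells of the embryo arise in the yolk sac, enter the circulation while still nucleated and are filled with embryonic globins. Hba-x in mouse and Hbz in rat encode zeta-type embryonic alpha-like chains, Hba-a1 encodes the alpha chain that continues in later life, and Hbb-bh1, Hbe1 and Hbg1 encode embryonic beta-like chains. Alas2 is the erythroid form of aminolevulinate synthase, which starts haem synthesis. Red cells reach the developing kidney through its vessels.

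In the RefSeq annotation of the rat genome (GRCr8) the member globins occupy both clusters. On chromosome 1, in the order of increasing coordinate, lie Hbb-bs, Hbb-b1, Hbbl1, Hbb-b2, Hbb, the pseudogene Hbe1l-ps1, Hbg1, Hbe2 and Hbe1. On chromosome 10 lie the pseudogene Hbq1, then Hba-a3, Hba-a2, Hbq1b, Hba-a1 and Hbz. The 3 promoters below are shown because their genes lie in these different clusters and yet were each far lower in rat bud than in mesenchyme. Each is the 250 bases before the annotated start, read on the minus strand, 5′ to 3′, at chr10:15849758-15850007 for Hbz, chr10:15842581-15842830 for Hba-a1 and chr1:167696281-167696530 for Hbe1, and capitals mark every match to a searched motif on either strand.
Hbz: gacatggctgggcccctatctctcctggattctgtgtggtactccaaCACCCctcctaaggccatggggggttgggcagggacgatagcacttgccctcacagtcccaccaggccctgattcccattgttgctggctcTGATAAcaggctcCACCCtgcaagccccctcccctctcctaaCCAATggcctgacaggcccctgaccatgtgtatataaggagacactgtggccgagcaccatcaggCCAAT
Hba-a1: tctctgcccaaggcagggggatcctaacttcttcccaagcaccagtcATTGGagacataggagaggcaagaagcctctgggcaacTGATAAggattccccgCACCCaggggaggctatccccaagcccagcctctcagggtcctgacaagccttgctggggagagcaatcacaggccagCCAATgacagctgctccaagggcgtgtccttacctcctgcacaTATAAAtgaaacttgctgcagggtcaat
Hbe1: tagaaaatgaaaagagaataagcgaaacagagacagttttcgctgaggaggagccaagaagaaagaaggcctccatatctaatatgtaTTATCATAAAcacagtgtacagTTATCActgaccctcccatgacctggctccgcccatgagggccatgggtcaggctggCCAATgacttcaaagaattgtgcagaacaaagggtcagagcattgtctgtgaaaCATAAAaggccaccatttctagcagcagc

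The motifs searched on both strands were those bound by GATA factors (AGATAA and, separately, TGATAA), the motif of Klf factors (CACCC), the motif CCAAT named by its own letters, and the TATA-box form TATAAA with its variant CATAAA. The GATA form beginning with T was added after the sequences had been read, so its presence in them is a description and no test. That form occurred in all 3 windows: at -112 in Hbz, at -165 in Hba-a1, and on the opposite strand at -162 and -140 in Hbe1, where the first match overlaps the CATA form at -158. Of all 33469 rat promoter windows of that length 7.97% held it. The Klf motif, which 49.2% of windows held, occurred at -203 and -99 in Hbz and at -149 in Hba-a1. CCAAT, held by 34% of windows, lay at -70 and -5 in Hbz, at -71 and on the opposite strand at -203 in Hba-a1, and at -83 in Hbe1. Hba-a1 held TATAAA at -28 and Hbe1 held CATAAA at -29, motifs found in 12.9% and 11.4% of windows. AGATAA, held by 10.3% of windows, was in none of the 3. These matches describe letters and were not tested for binding. The annotated start of Hbe1 lies inside a longer annotated span of the gene. Promoters of 4 of the 7 genes were in the sequence table used, the fourth being Alas2, whose window lies within the gene and is not shown.

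**Figure D1:**
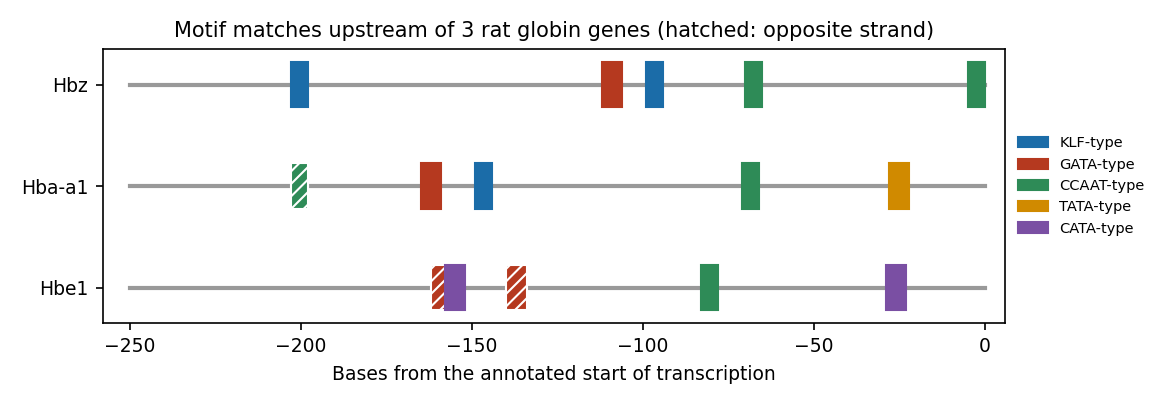
Positions of motif matches in the 250 bases before the annotated start of rat Hbz, Hba-a1 and Hbe1, in bases from the start, with colours for the motif type and hatching for the opposite strand. A GATA-type match (TGATAA, a form added after the sequences had been read) appears on all 3 lines. A TATA-type or CATA-type match near -28 appears for Hba-a1 and Hbe1.

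The embryonic beta-like globin Hbb-bh1 was lowest in the mouse bud tip, intermediate in the stalk and highest in the mesenchyme. Its brightest probe set (1450736_a_at) had quantile-normalised intensities of 567 and 540 on the tip arrays, 1628 and 1589 on the stalk arrays and 3616 and 3679 on the mesenchyme arrays. The arrays of the 3 tissues did not overlap, and the repeat labelings lay close together beside the steps between tissues. Here and below, lack of overlap between 2 arrays per tissue is a description only. The share of all tested probe sets without overlap is not given. On the log2(intensity + 16) scale the tip differed from the stalk by -1.51 (SE 0.04, limma adjusted p = 7.12e-08) and from the mesenchyme by -2.69 (SE 0.04, limma adjusted p = 1.29e-09). The stalk differed from the mesenchyme by -1.17 (SE 0.04, limma adjusted p = 4.67e-07). These 3 comparisons share arrays and are not independent of each other.

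The other Hbb-bh1 probe sets gave the same order of tissues. Probe set 1437810_a_at read 471 and 468 in the tip, 1379 and 1422 in the stalk and 3269 and 3253 in the mesenchyme. Probe set 1437990_x_at read 459 and 460, then 1424 and 1464, then 3321 and 3336. The x in its suffix marks probes that can also bind related transcripts, so cross-hybridisation between globins cannot be set aside for it. The mean tip level was 13.8% to 15.2% of the mesenchyme level over the 3 probe sets, and the stalk level 43.0% to 44.1%.

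The zeta-type globin Hba-x, from the other cluster, followed the same tissue order. Its probe set 1448716_at read 866 and 854 in the tip, 2411 and 2494 in the stalk and 4838 and 4729 in the mesenchyme, again without overlap. The log2 difference of tip from stalk was -1.49 (SE 0.04, limma adjusted p = 4.31e-08) and that of tip from mesenchyme -2.45 (SE 0.04, limma adjusted p = 1.29e-09). For stalk against mesenchyme it was -0.96 (SE 0.04, limma adjusted p = 8.33e-07). That last difference passed the test but missed the 2-fold limit used for a call, and it reached -1.01 when arrays were scaled to a common trimmed mean in place of quantile normalisation. Its tip and stalk levels were 17.97% and 51.3% of the mesenchyme level. For both embryonic globins the fold was larger from tip to stalk than from stalk to mesenchyme, and the difference between these steps was not tested. The summed mesenchyme markers stood in the same order of tip, stalk and mesenchyme as both globins, and their part in the globin levels of the stalk was not tested.

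Alas2 was a dim signal with a shallower gradient. Its mouse probe set 1451675_a_at read 40.3 and 41.1 in the tip, 62.7 and 63.95 in the stalk and 129 and 117 in the mesenchyme. The tip lay below the filter intensity of 49.5, the median of the mouse table, and the probe set was tested because stalk and mesenchyme lay above it. The tip differed from the mesenchyme by -1.29 on the log2 scale (SE 0.13, limma adjusted p = 6.57e-05). The tip differed from the stalk by -0.48 (SE 0.13, limma adjusted p = 0.0214) and the stalk from the mesenchyme by -0.81 (SE 0.13, limma adjusted p = 0.00310), both under 2-fold. The tip to stalk adjusted p from limma was 0.155 and 0.172 without stalk array 1 and 2, and 0.0605 under trimmed-mean scaling. The stalk to mesenchyme one was 0.0592 and 0.0523 without those arrays. At this intensity the added 16 compresses the fold: with 64 added, the tip to mesenchyme difference was -0.83 and fell short of the 2-fold limit.

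The mouse probe set of Hba-a1 (1453574_at) gave no usable signal. It read 15.03 and 17.1 in the tip, 13.1 and 15.2 in the stalk and 13.3 and 16.8 in the mesenchyme, all under the filter. The tissues overlapped, and without the filter its log2 difference between tip and mesenchyme was 0.05. It was not tested, and a low reading of 1 probe set does not show that the transcript was absent.

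**Figure D2:**
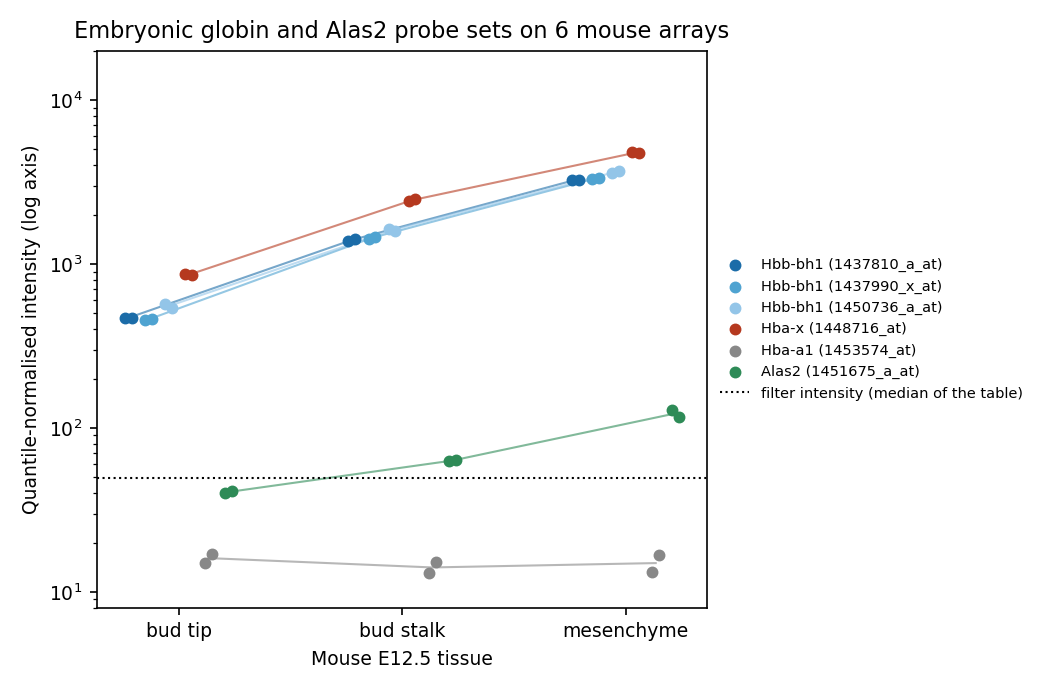
Quantile-normalised intensity (log axis) of the 6 mouse probe sets on each array of bud tip, bud stalk and mesenchyme, with points for arrays and lines through tissue means. Hbb-bh1 and Hba-x climb from tip to mesenchyme, Alas2 climbs from below the dotted filter intensity of 49.5, and Hba-a1 stays flat under it.

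A called difference needed a Benjamini-Hochberg adjusted p under 0.05 over all tested probe sets of the table and at least a 2-fold difference. Of the 5 tested mouse probe sets, 4 were called lower in tip than in stalk, where 3.63% of all 23937 tested probe sets were. All 5 were called lower in tip than in mesenchyme, against 4.27% of all tested. In stalk against mesenchyme 3 of 5 were called lower, all of them Hbb-bh1, against 0.426% of all tested. With tip and stalk averaged at equal weight, the mouse comparison nearest to a whole bud, all 5 were called lower than in mesenchyme, where 1.77% of all tested were. With limma 0 of the 5 were called higher in any of these 4 comparisons, where 0.953%, 3.9%, 2.34% and 2.88% of all tested were, and 0 were higher at an unadjusted p under 0.05. Since the 5 probe sets stand for 3 genes and 3 of them read Hbb-bh1, the counts are not counts of independent genes. The genes were also chosen with earlier results of these data known, so the counts describe them and are no independent support. In these bulk samples, fewer red cells and less globin RNA per red cell cannot be told apart.

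Ranks place these genes among all tested transcripts. Counted from the lowest difference, the 3 Hbb-bh1 probe sets ranked 61, 64 and 68 of 23937 in stalk against mesenchyme, Hba-x 113 and Alas2 195. In tip against mesenchyme the ranks were 104, 89 and 117 for Hbb-bh1, 144 for Hba-x and 683 for Alas2. In tip against stalk they were 404, 364 and 416, then 429 and 2225, and with tip and stalk averaged against mesenchyme 55, 50 and 66, then 101 and 378. The median difference over all tested probe sets lay near 0 in the first 3 of these, at -0.05, 0.01 and 0.06 in that order.

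In rat, both embryonic beta-like globins among the chosen genes were far lower in bud than in mesenchyme, Hbg1 by its brighter probe set only. Hbe1 (X56326cds_at) read 939 and 1124 on the bud arrays of design A and 8082 and 7933 on the mesenchyme arrays. The tissues did not overlap, and the log2 difference was -2.94 (SE 0.14, limma adjusted p = 7.09e-05), with the bud at 12.9% of the mesenchyme level. Hbg1 (rc_AA875512_f_at) read 167 and 240 in bud and 1842 and 1857 in mesenchyme. Its bud level was 11.0% of the mesenchyme level, a log2 difference of -3.11 (SE 0.18, limma adjusted p = 1.64e-04). Without the second bud labelling the differences were -3.09 for Hbe1 and -3.34 for Hbg1, so neither rests on that array.

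A second Hbg1 probe set (rc_AA875199_f_at) did not show this difference. It read 44.7 and 59.2 in bud and 70.6 and 59.8 in mesenchyme, under the filter intensity of 111, and was not tested. Without the filter its difference was -0.26 (limma adjusted p = 0.46). The f in both names marks probe sets built for a family of similar transcripts, so the bright one may also read other beta-like globins, and the Hbg1 value is uncertain to that extent.

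The alpha-like globins on design B had the same direction. Hbz (rc_AI008635_at) read 369 and 356 in bud and 4385 and 5138 in mesenchyme. Its bud level was 7.61% of the mesenchyme level, with a log2 difference of -3.66 (SE 0.14, limma adjusted p = 8.07e-05). Hba-a1 (rc_AA851497_f_at) read 773 and 623 in bud and 6140 and 5868 in mesenchyme. The difference was -3.08 (SE 0.17, limma adjusted p = 1.71e-04), with the bud at 11.6% of the mesenchyme level, and its probe set too carries the family suffix. Neither gene overlapped between tissues. Without the second bud labelling Hbz differed by -3.68 and Hba-a1 by -2.998.

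Rat Alas2 was not called. Its probe set D86297_at on design A read 348 and 274 in bud and 487 and 439 in mesenchyme. The groups did not overlap, but the gap between the nearest arrays was similar to the gap between the bud labelings. The log2 difference was -0.56 (SE 0.16, limma adjusted p = 0.0717), with the bud at 67.2% of the mesenchyme level. It was -0.39 without the second bud labelling and -0.72 without the first, which leaves only the bud labelling with the high Gapdh ratio. Without mesenchyme array 1 or 2 it was -0.49 or -0.63. All of these values stayed under 2-fold. With 1 array left in a tissue, the spread of this probe set comes from the other tissue alone, so p-values of these fits are not given.

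**Figure D3:**
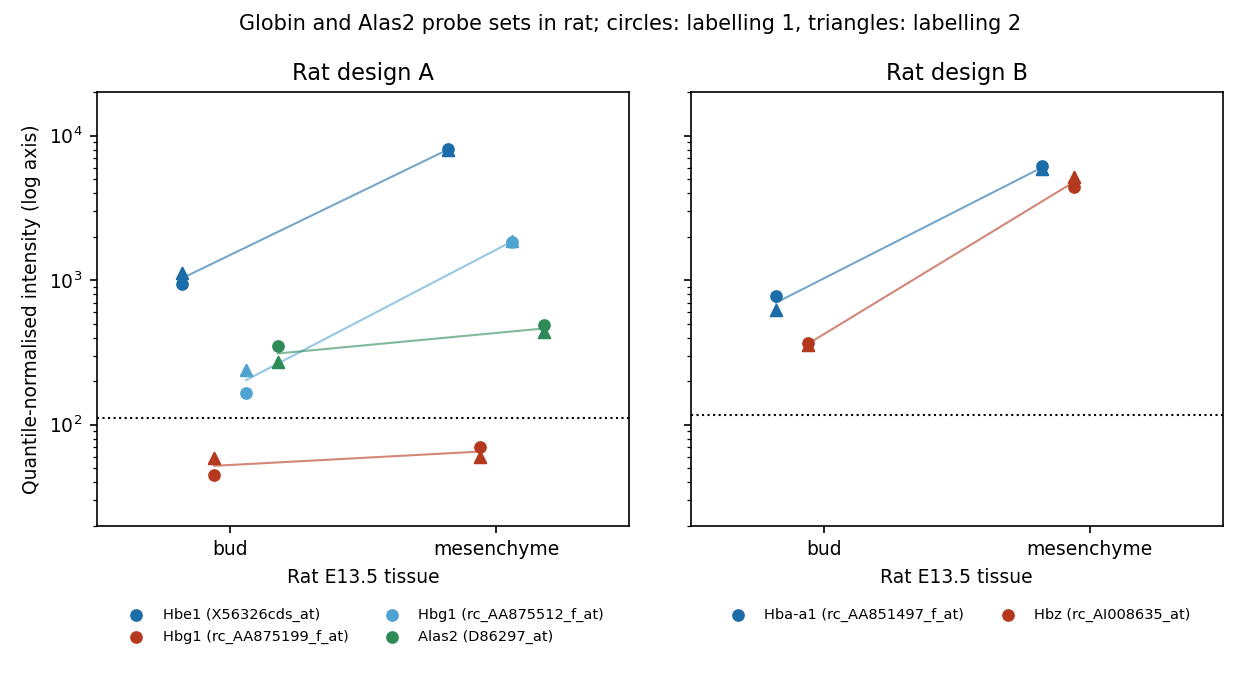
Quantile-normalised intensity (log axis) of the rat probe sets in bud and mesenchyme on designs A and B, with circles for labelling 1, triangles for labelling 2, lines through tissue means and dotted lines at the filter intensities. Hbe1, Hba-a1, Hbz and the brighter Hbg1 probe set climb steeply, while Alas2 and the dim Hbg1 probe set stay within a narrow band.

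On design A 2 of the 3 tested probe sets were called lower in bud, against 3.02% of all 4629 tested, and on design B both were, against 2.74% of 4667. With limma 0 were called higher on either design, where 2.77% and 3.06% of all tested were, and 0 were higher at an unadjusted p under 0.05. Design C, which held none of these genes, had 2.23% of its tested probe sets called higher in bud and 2.4% lower. From the lowest difference, Hbg1 ranked 10 and Hbe1 13 of the tested probe sets of design A, and Alas2 451. Hbz ranked 3 and Hba-a1 8 on design B.

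Side by side, the zeta-type genes differed between bud and mesenchyme by -1.71 in mouse (Hba-x against the mean of tip and stalk, SE 0.03, limma adjusted p = 5.36e-09) and by -3.66 in rat (Hbz). Among the beta-like embryonic genes Hbb-bh1 differed by -1.93 to -2.01 in mouse, and Hbe1 and Hbg1 by -2.94 and -3.11 in rat. Others of that kind outside the chosen genes lay nearer to 0, at -0.45, -0.50 and -0.996 for the 3 probe sets of mouse Hbb-y, none of them called, and -0.03 for rat Hbe2. Alas2 differed by -1.05 in mouse (SE 0.11, limma adjusted p = 1.39e-04) and by -0.56 in rat. The species differ in array, probe sets, stage and dissection, and the species difference was not tested.

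**Figure D4:**
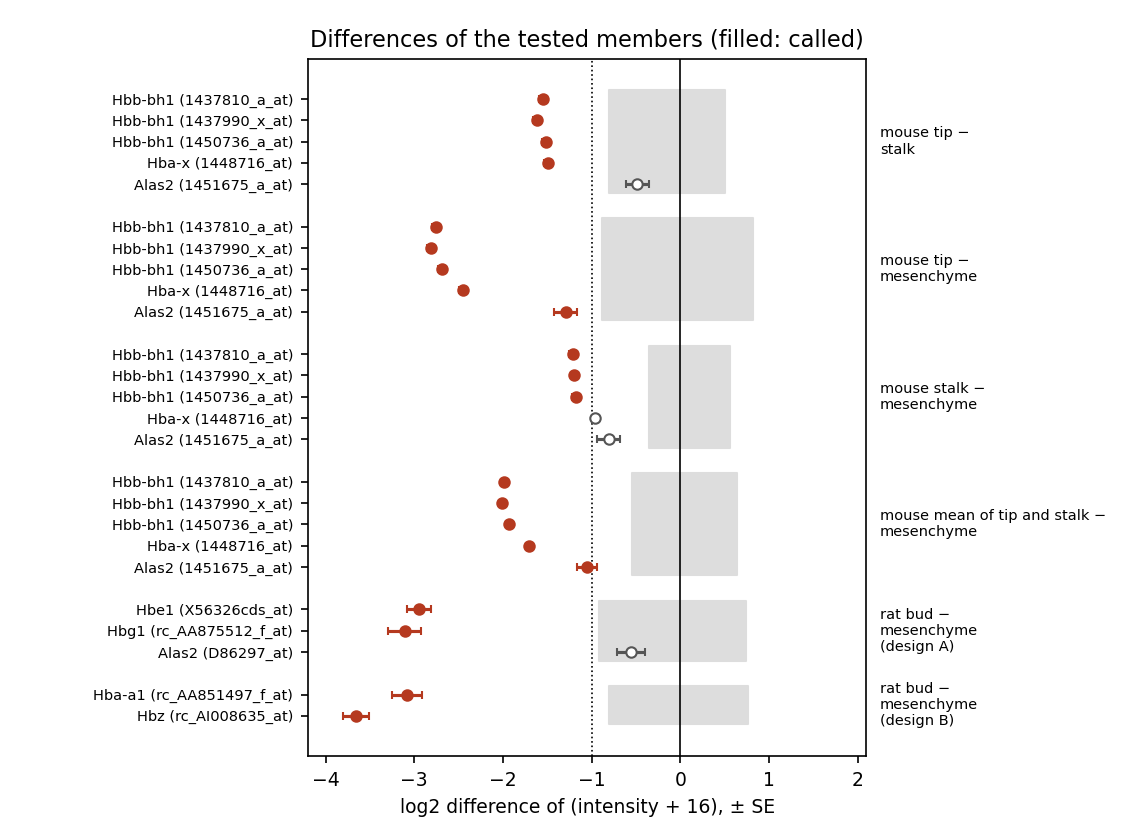
Log2 difference of (intensity + 16) with its standard error for each tested probe set in 6 comparisons, filled where called. Grey bands span the 5th to 95th percentile of all tested probe sets, the solid line marks 0 and the dotted line a 2-fold lower level, and every value of Hbb-bh1, Hba-x, Hbe1, Hbg1, Hba-a1 and Hbz lies left of its grey band.

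The remaining globins on the arrays were less uniform. In mouse, the embryonic beta-like globin Hbb-y was read by 3 probe sets that disagreed in size. Probe set 1450621_a_at differed by -1.14 between tip and stalk and by -1.57 between tip and mesenchyme, both called, and by -0.42 between stalk and mesenchyme. Probe sets 1436717_x_at and 1436823_x_at differed by -0.82 and -0.86 between tip and mesenchyme, under 2-fold. Their mesenchyme levels averaged 12508 and 13607, close to the highest normalised value of the table, 16822, against 9929 for the first, and whether brightness near the top of the scale compressed their differences was not tested. The probe sets that name only Hba-a2 or only Hbb-b2, globins of later red cells, were under the filter in every mouse tissue. Probe sets that name several genes, among them 3 in mouse that include a member, were not read. These low readings therefore do not show that later globins were absent.

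In rat, the beta globins of later life differed in size between probe sets. Hbb-bs (rc_AI012182_s_at, design B) read 76.6 and 92.9 in bud and 581 and 651 in mesenchyme, a log2 difference of -2.65 (limma adjusted p = 1.25e-04). Hbb (M94918mRNA_f_at, design A) read 224 and 208 in bud and 595 and 581 in mesenchyme, and differed by -1.38 (limma adjusted p = 8.90e-04). Hbb-b1 (M94919mRNA_f_at, design A) differed by -0.60. Without the second bud labelling these differences were -2.74, -1.32 and -0.56, an alternative chosen after the data had been seen. The Hbb and Hbb-b1 probe sets carry the family suffix, so they may also read other beta-like globins. Both bud readings of Hbb-bs lay under the filter intensity of 117.6 on design B, and it was tested only through its mesenchyme level. The embryonic beta-like Hbe2, the neighbour of Hbe1, differed by -0.03, with all 4 of its readings between 307 and 316. Without that labelling it differed by -0.03 too. These readings came from 1 probe set (X56327cds_i_at), and flat readings of it do not show that the transcript was equal in both tissues. Ahsp, the chaperone that stabilises free alpha globin, read 32.5 and 28.6 in bud and 80.8 and 62.3 in mesenchyme on design C, under the filter.

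Haem synthesis outside Alas2 did not show the globin pattern. The list held 14 genes for the enzymes after Alas2, the housekeeping form Alas1 and the carriers that bring iron to the mitochondrion, of which 12 were tested in mouse. With limma 0 of 12 were called in either direction in tip against stalk, tip against mesenchyme and stalk against mesenchyme, and 5, 7 and 3 had an unadjusted p under 0.05, in mixed directions. Over all tested probe sets 3.63%, 4.27% and 0.426% were called lower in these comparisons, and 0.953%, 3.9% and 2.34% higher. The median differences of the list were -0.07, -0.12 and -0.11. Against the mesenchyme the tip differed by -0.41 for Urod and -0.34 for Ppox, both enzymes of the later steps, and by 0.59 for Cpox, 0.24 for Tmem14c and 0.09 for Slc25a38, which run against the list. In rat 0 of the 4 tested on each design were called with limma, and 0 had an unadjusted p under 0.05.

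Regulators of the red cell lineage moved in both directions in mouse. Of 13 tested, 1 was called higher and 1 lower in tip than in stalk. In tip against mesenchyme 2 were called higher and 1 lower. In stalk against mesenchyme limma called 1 higher and 0 lower. There 5 were higher and 4 lower at an unadjusted p under 0.05. Over all tested probe sets 0.953%, 3.9% and 2.34% were called higher and 3.63%, 4.27% and 0.426% lower in these comparisons. Lmo2, an adaptor of the Gata1 and Tal1 complex that endothelium also uses, read 97.6 and 89.0 in tip, 192 and 202 in stalk and 278 and 335 in mesenchyme, and differed by -1.56 between tip and mesenchyme (limma adjusted p = 1.09e-05). Myb, a regulator of blood progenitors, ran the other way, with 734 and 721 in tip, 245 and 203 in stalk and 124 and 94.3 in mesenchyme, 2.58 higher in tip than in mesenchyme (limma adjusted p = 7.53e-07). Gata2, which acts in early blood progenitors, was highest in the stalk at 1023 and 1218, against 310 and 351 in tip and 304 and 350 in mesenchyme.

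The regulators that define red cells themselves were dim. Gata1, the central erythroid factor, read 23.8 to 33.4 over the 6 mouse arrays and Nfe2 15.8 to 33.8, both under the filter. Klf1, the activator of beta-like globin genes, was tested and differed by -0.30 between tip and mesenchyme (SE 0.18, limma adjusted p = 0.243). Tal1, a partner of Gata1, differed by -0.75 (limma adjusted p = 0.00314), under 2-fold. Sox6, known to restrain embryonic globin expression in later red cells, was 1.07 higher in tip than in mesenchyme (limma adjusted p = 0.00104), with 168 and 187 against 63.0 and 91.2. The count of 2 higher in tip than in mesenchyme was 1 without mesenchyme array 1 or with 64 added. In rat 0 regulators were called with limma among 1, 4 and 3 tested on designs A, B and C, and 0, 0 and 1 had an unadjusted p under 0.05. Gata1 on design A differed by less than 0.01.

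Among 14 tested genes of the red cell surface, membrane skeleton and iron uptake, 2 were called lower and 1 higher in mouse tip than in mesenchyme, beside 4.27% and 3.9% of all tested probe sets. Slc4a1, the anion exchanger of the red cell membrane, read 71.9 and 62.7 in tip, 78.7 and 89.2 in stalk and 170 and 146 in mesenchyme, a difference of -1.06 between tip and mesenchyme (limma adjusted p = 3.79e-04). Cd36, a fatty acid transporter also found on endothelium and macrophages, differed by -1.55 in the same comparison (limma adjusted p = 3.15e-04). Dmtn, an actin-bundling protein of the membrane skeleton, was 1.33 higher in tip (limma adjusted p = 2.84e-05). Gypc, a glycophorin, differed by -0.94 (limma adjusted p = 0.00288) and was not called. The 2 lower calls became 1 without mesenchyme array 1 and 0 with 64 added, and the higher call was lost when all probe sets of a gene were averaged. The other 2 mouse comparisons gave 0 calls with limma in this list, with 5 and 3 genes at an unadjusted p under 0.05. In rat Cd47, a surface protein that many cell types carry, differed by -1.16 on design B (limma adjusted p = 0.00262) and by -1.29 without the second bud labelling. It was the 1 called of 6 tested there, beside 2.74% of all tested probe sets called lower, and was lost with 64 added. With limma 0 were called among 7 on design A and 4 on design C, where 1 and 0 had an unadjusted p under 0.05.

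Of 13 other red cell genes tested in mouse 0 were called lower with limma in any of the 3 comparisons. At an unadjusted p under 0.05, 4, 4 and 2 were lower and 4, 6 and 4 higher, in the order of comparisons given next. In tip against stalk, tip against mesenchyme and stalk against mesenchyme 3.63%, 4.27% and 0.426% of all tested probe sets were called lower. The shares called higher were 0.953%, 3.9% and 2.34%. Tspan33, a tetraspanin, was called higher in tip (2.28) and in stalk (1.43) than in mesenchyme, and Cited4, a transcriptional co-activator, likewise (2.61 and 1.12) and also higher in tip than in stalk (1.49). Hebp1, a haem-binding protein, was called higher in stalk than in mesenchyme (1.17). Hemgn, a nuclear protein of red cell precursors, entered the tests only through its mesenchyme level and read 15.6 and 21.4 in tip, 35.3 and 28.6 in stalk and 61.2 and 44.8 in mesenchyme, a difference of -0.99 between tip and mesenchyme that was not called. Averaging all probe sets of a gene left 1 of the 3 higher calls in stalk against mesenchyme and 0 in tip against stalk, and without tip array 2 or mesenchyme array 2 there was 1 lower call in tip against mesenchyme. In rat 0 of 5 tested on design A and 0 of 4 on design C were called with limma, with 1 and 2 higher at an unadjusted p under 0.05.

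**Figure D5:**
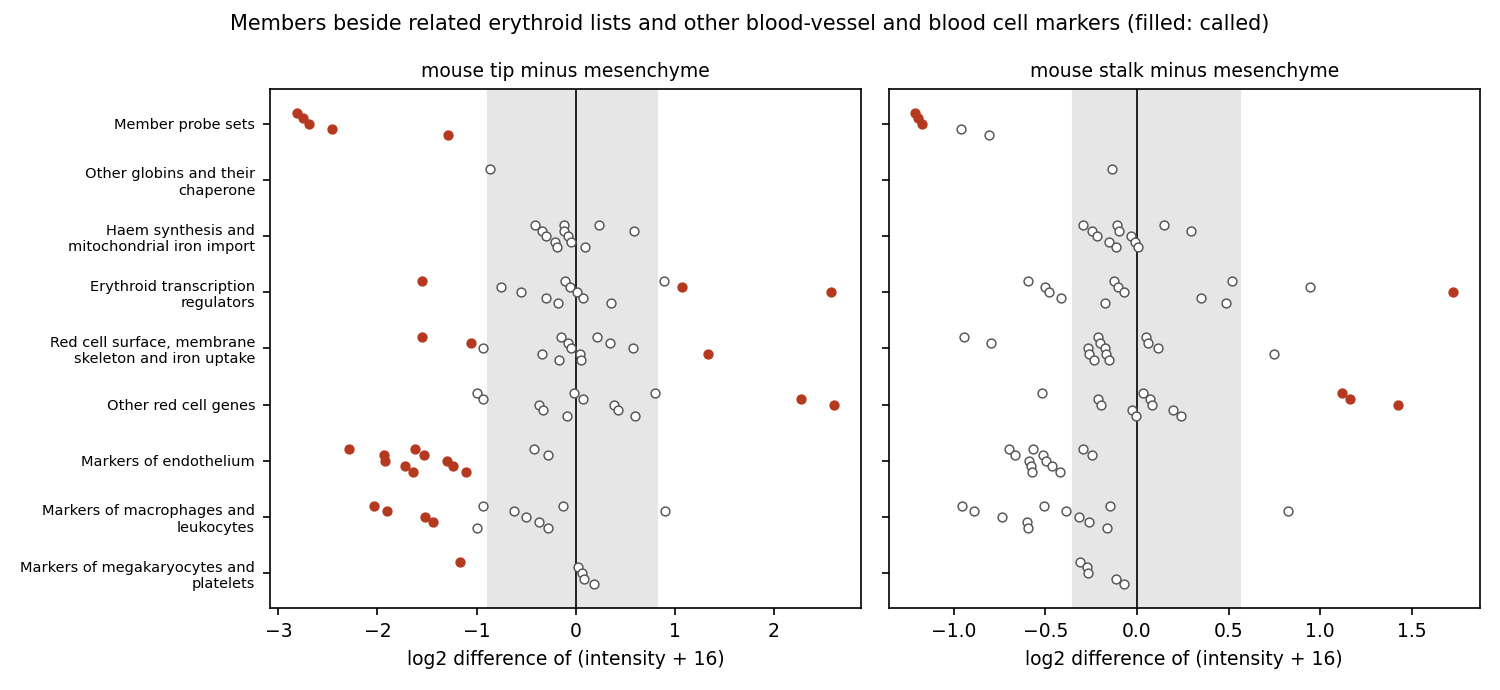
Log2 difference of (intensity + 16) in mouse tip minus mesenchyme (left) and stalk minus mesenchyme (right), for each tested probe set of the globins and Alas2 and for the brightest tested probe set of each gene in the related lists and cell marker lists, filled where called. Grey bands span the 5th to 95th percentile of all tested probe sets. Hbb-bh1 and Hba-x lie left of the band in both panels, the brightest Hbb-y probe set and the haem synthesis genes lie within it, and endothelial markers lie left of 0.

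Markers of blood vessels moved with the globins in mouse. The summed level of 12 endothelial markers was 1167 to 1169 in tip, 2402 to 2542 in stalk and 3657 to 3700 in mesenchyme, the same order as the globins, and no marker was listed at 0. Of the 12, 6 were called lower in tip than in stalk, beside 3.63% of all tested probe sets. In tip against mesenchyme 10 were called lower, beside 4.27%. These counts became 3 and 6 with 64 added. In stalk against mesenchyme limma called 0, beside 0.426% of all tested, and 11 of the markers were lower at an unadjusted p under 0.05. Their median differences were -0.99, -1.57 and -0.54, and single markers reached the size of the globin differences, with Plvap at -1.58 and Cd34 at -1.51 in tip against stalk. The part of vessel content in the globin differences was not tested.

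The 13 markers of macrophages and leukocytes summed to 675 to 766 in tip, 1009 to 1049 in stalk and 1469 to 1575 in mesenchyme, with 1 of them under the filter. Of the 12 tested 1 was called lower in tip than in stalk, beside 3.63% of all tested probe sets. In tip against mesenchyme 4 were called lower, beside 4.27%, among them the cathepsin Ctss (-2.03) and the complement chain C1qa (-1.90). In stalk against mesenchyme limma called 0, beside 0.426% lower over all tested. At an unadjusted p under 0.05, 7 markers were lower and 1 higher there. In tip against mesenchyme 9 were lower and 1 higher at that limit. The tip to stalk count was 2 without either tip array, and the stalk to mesenchyme count was 2 without mesenchyme array 2. The 6 markers of megakaryocytes and platelets did not separate the tissues by their sums, which were 468 to 662, 525 to 579 and 573 to 713. Only the platelet chemokine Pf4 was called among them, with a difference of -1.17 between tip and mesenchyme, a call lost without tip array 1. The part of these cells in the globin differences was not tested.

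In rat the same marker lists were thinly covered. On design B the 7 endothelial markers summed to 672 to 749 in bud and 1102 to 1162 in mesenchyme. Of 4 tested there 1 was called lower, beside 2.74% of all tested probe sets. On design C 5 markers summed to 574 to 581 and 1054 to 1065, and 2 of 4 were called lower, beside 2.4%. Without either mesenchyme array of design C 0 of those 4 were called. On design A, which held Hbe1 and Hbg1, 3 endothelial markers summed to 223 to 288 in bud and 315 to 371 in mesenchyme, and only 1 of them was above the filter. That one, the receptor Flt1, differed by 0.14 (limma adjusted p = 0.680), so the lower bud sum rested on markers under the filter. Their part in the rat globin differences was not tested.

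The genes with the most similar profiles were found by the root-mean-square difference between log2 profiles, each centred on its own mean, over the arrays of 1 table. Candidates were genes whose tissue means spanned at least 2-fold, 1336 in mouse. For Hba-x, the member with the highest mean log2 intensity in mouse, the nearest over 6 arrays was the scavenger receptor Colec12, at 0.05, followed by Nr2f2, Nefm, Tent5a, Hoxc4, Dlk1, Gas1 and Chl1. For Hbb-bh1 (1450736_a_at) it was Hoxc8, at 0.12, followed by Adamts12, Colec12, Cacna2d1, Ankrd6, Nr2f2, Tent5a and Sall1. For Hbe1 on rat design A, over 4 arrays and 183 candidates, it was the retinoic acid synthesis enzyme Aldh1a2, at 0.07, followed by Plat, Vim, Foxd1, Nr2f1, Efemp1, Col5a2 and Wt1. For Hba-a1 on rat design B, over 4 arrays and 172 candidates, it was Hoxd10, at 0.20, followed by Cdh2, Adgra2, Foxc2, Cdh11, Hbb-bs, Hoxa11 and Cdkn1c. Several of these are textbook mesenchyme genes, among them Foxd1 of the stroma and Wt1 and Sall1 of nephron progenitors. With 2 or 3 tissues the measure sorts genes by the steps between tissues alone and carries no more than that.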

How the data were processed

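Expression was measured on Affymetrix arrays, 6 of mouse and 12 of rat on 3 designs. Samples were grouped by their titles, with 2 labelings of 1 pooled RNA in each group. The deposited tables hold 1 linear intensity per probe set and array as made by the authors. How they were summarised and scaled is not given in the sources used here. From these, intensities were quantile normalised within each table, control probe sets left out, 16 added and log2 taken. Probe sets entered the tests where some tissue's mean was at or above the table's median. Tests used lmFit and eBayes (with trend) of limma 3.58.1, run in R 4.3.3, all 6 mouse arrays in 1 fit and each rat design alone, with Benjamini-Hochberg adjustment over all tested probe sets. Checks on simulated data preceded the fits.

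Genes were named from the platform annotation. Named genes were every member, up to 8 called genes of the related lists per comparison, chosen list genes running against the list's median or below the threshold, and the 8 most alike genes. Gata1, Nfe2, Klf1, Tal1, Hemgn and Gypc, below the threshold or the filter, and the endothelial, macrophage, platelet and mesenchyme markers were named after their values were seen. The rule for most alike genes named both the brightest member and Hbb-bh1 in mouse, and since the brightest was Hba-x, both are given. Members and lists were chosen with earlier results of these data known. Motifs were counted in RefSeq promoter windows of rat GRCr8.

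Same-numbered mouse arrays deviated together from their tissue means (r = 0.47, 0.57 and 0.42 over probe sets). The labels' numbers were taken to pair them only in an alternative fit, with the replicate number as a block. The main fits, which gave the differences and p-values above, used tissue alone and left this pairing out. Alternatives were the deposited values, trimmed-mean scaling, added constants of 1 and 64, no filter, no trend, the replicate block, gene means over probe sets, and each array left out. The number of arrays limits the precision.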

Additional observations from a re-analysis of the deposited data

How the results depend on the processing

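Of 285 recomputed differences of the globin and Alas2 probe sets, 281 kept their direction and their side of the threshold, 3 fell short of it, 1 newly passed and 0 reversed. With 64 added in place of 16, Alas2 in mouse differed by -0.83 between tip and mesenchyme and by -0.69 between the mean of tip and stalk and mesenchyme, both no longer called, because the larger constant shrinks dim signals. The latter ranged from -1.13 to -0.98 with single arrays left out, falling short of 2-fold without mesenchyme array 1. Under trimmed-mean scaling Hba-x in stalk against mesenchyme was -1.01 and called, and the cause was not tested. Adding 64 lowered the counts of called probe sets from 1098 to 671 (tip against stalk), 1954 to 1266 (tip against mesenchyme), 663 to 392 (stalk against mesenchyme), 1112 to 658 (mean of tip and stalk) and 271 to 172 (rat design B). Leaving out single arrays gave 236 to 477 calls on rat design A (268 with all, 477 without bud array 1) and 76 to 361 on design C (216 with all, 361 without bud array 1, 76 and 82 without mesenchyme arrays 1 and 2).

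With the replicate number as a block the mouse counts were 1098, 1954, 663 and 1112, and the block changed no call of a globin or Alas2 probe set. The adjusted p of rat Alas2, 0.0717 without the block, was 0.0242 with it, at the same difference of -0.56 and under 2-fold. On rat designs A, B and C the deviations of same-numbered bud and mesenchyme arrays from their tissue means correlated at 0.31, 0.22 and 0.29 over probe sets. Of 1720 recomputed list counts 1650 stayed within 1.5 times. Signals under the filter, mouse Hba-a1 and the dim Hbg1 probe set, carry no order.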
